A study of Mus musculus with 13 samples.

Results

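The genes described here are 2 ADAR enzymes and 6 proteins that bind double-stranded RNA (dsRNA): Adar, Adarb1, Dhx9, Ilf2, Stau1, Stau2, Prkra and Tarbp2. They were found by symbol in GENCODE mouse GRCm38 among the 54532 genes of the count table, and all 8 were counted in each of the 12 libraries used. The libraries come from YUMM1.7, a mouse melanoma line labelled wild type, given the solvent DMSO, 10 µM ADAR1i-124 over 12 h, 1 µM 5-AZA-CdR over 72 h, or the combination of these agents. ADAR1i-124 is the editing inhibitor under study, and 5-AZA-CdR is an inhibitor of DNA methylation. Total RNA was sequenced after removal of ribosomal RNA, and RNA was also precipitated with J2, an antibody to dsRNA, with Z22, an antibody to left-handed Z-form RNA, or with IgG as the control. Each condition has 1 library, from 1 cell line, so no treatment difference has a replicate check. In the combination, 5-AZA-CdR came first and 10 µM ADAR1i-124 followed for 12 h. A combination with 1 µM ADAR1i-124 was made as well, and the labels give no dose for a library, nor what the cells of the IgG control had received. The total RNA library of the combination was left out of the comparisons because its counts follow the opposite strand.

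The ADAR enzymes deaminate adenosine to inosine in dsRNA, which changes base pairing and can keep cellular dsRNA from being read as foreign by sensors such as MDA5 and PKR. Adar encodes ADAR1, made as an interferon-inducible longer form and a constitutive shorter form, and Adarb1 encodes ADAR2. The other proteins bind dsRNA or act in complexes that do, and serve other steps: Dhx9 is an RNA helicase, Ilf2 a subunit of a nuclear dsRNA-binding complex, Stau1 and Stau2 the Staufen proteins of mRNA transport and decay, and Prkra and Tarbp2 the partners of Dicer, which in addition act on PKR in opposite ways.

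Library totals ranged from 17015425 to 34571822 counts for total RNA and from 8167960 to 15324595 after precipitation. Values are CPM, counts per 1000000 counted in the library, and 3 counts, the smallest number taken as detected, came to 0.0868 to 0.367 CPM. The Z22 library of DMSO stood apart: the single gene Gm42418, which overlaps ribosomal RNA sequence, took 34.9% of its counts, against 10.6% to 15.8% in the other Z22 libraries and 15.8% to 18.9% in the J2 libraries. Gm42418 took 14.2% in the IgG library and 0.0299% to 0.334% in total RNA. Libraries of one treatment also differed between fractions in genes other than the members. Ddx3y, a Y-linked helicase, was at 3.35 CPM in total RNA with DMSO and 26.3 in J2 with DMSO, but at 48.9 in total RNA with ADAR1i-124 and 1.46 in J2 with ADAR1i-124. Mki67, a proliferation marker, was at 895 CPM with DMSO, 640 under ADAR1i-124 and 86.6 under 5-AZA-CdR in total RNA. In J2 it was at 167 CPM with DMSO, 1171 under ADAR1i-124, 134 under 5-AZA-CdR and 167 with the combination. In Z22 it was at 713, 1295, 747 and 109 in the same order. The part of these differences in the results below was not tested, and each direction below is that between the libraries as labelled. Gene counts hold no readout of A-to-I editing, the activity that ADAR1i-124 was made to inhibit, so whether any libraries of DMSO and ADAR1i-124 had been exchanged was not tested. An exchange would turn the direction of the changes between them. Of the melanocyte markers, Mitf was present at 9.68 to 33.1 CPM, while the summed level of all 7 markers was 9.82 to 33.6 CPM, so the pigment genes were at or near 0. Summed leukocyte markers were at 6.74 to 79.1 CPM and endothelial markers at 3.33 to 82.7, both highest in total RNA with 5-AZA-CdR, and keratinocyte markers did not pass 0.14. Only Cd68 of the leukocyte markers and Cdh5 of the endothelial ones averaged 10 CPM or more. Of the 5 leukocyte markers, 4 were at 0 in total RNA with DMSO. With DMSO and ADAR1i-124 in turn, leukocyte markers summed to 8.29 and 19.6 CPM in total RNA, 59.8 and 6.74 in J2 and 15.5 and 13.1 in Z22. Endothelial markers summed to 4.06 and 18.2 CPM in total RNA, 8.45 and 3.54 in J2 and 7.10 and 4.23 in Z22. The part of these markers in the member changes was not tested. Vim, Axl and Fn1, which mark mesenchymal cells, summed to 1744 to 6334 CPM. In bulk RNA of this kind, fewer cells that express a gene and less RNA per cell cannot be told apart.

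Adar lies on chr3:89715022-89753446 of GRCm38, on the forward strand. RefSeq lists 3 start sites for it, and 2 of their windows, each from 250 bases before the start to 50 after it, are shown because Adar moved with interferon-stimulated genes in these libraries. The upstream window holds only the start of the gene's first exon. The internal window lies in the intron that follows that exon and ends in the first exon of other Adar transcripts. Capitals mark the letters GAAANNGAA on either strand, the shared part of the response element of interferon-stimulated genes. Eif2ak2, the gene of PKR, and Isg15 are shown beside it. All 4 are read from 5′ to 3′ on the strand of the gene.

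Adar upstream start, chr3:89714772-89715071, forward strand: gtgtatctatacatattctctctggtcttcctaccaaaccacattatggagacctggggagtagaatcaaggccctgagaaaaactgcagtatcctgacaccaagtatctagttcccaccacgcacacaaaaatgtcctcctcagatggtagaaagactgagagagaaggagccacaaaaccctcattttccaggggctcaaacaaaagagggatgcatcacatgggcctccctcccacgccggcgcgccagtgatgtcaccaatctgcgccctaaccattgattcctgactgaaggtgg
Adar internal start, chr3:89730468-89730767, forward strand: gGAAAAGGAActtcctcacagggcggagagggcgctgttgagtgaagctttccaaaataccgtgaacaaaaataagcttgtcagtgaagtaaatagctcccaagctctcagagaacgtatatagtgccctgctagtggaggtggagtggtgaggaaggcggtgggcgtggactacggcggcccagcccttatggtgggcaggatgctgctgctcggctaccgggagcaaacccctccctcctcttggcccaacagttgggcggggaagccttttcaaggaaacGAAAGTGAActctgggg
Eif2ak2, chr17:78882523-78882822, reverse strand: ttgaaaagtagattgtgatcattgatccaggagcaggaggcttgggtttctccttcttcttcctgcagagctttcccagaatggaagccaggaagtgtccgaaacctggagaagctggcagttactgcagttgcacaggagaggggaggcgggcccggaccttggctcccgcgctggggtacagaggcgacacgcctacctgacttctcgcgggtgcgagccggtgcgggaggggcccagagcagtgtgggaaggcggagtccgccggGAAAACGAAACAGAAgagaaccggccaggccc
Isg15, chr4:156200769-156201068, reverse strand: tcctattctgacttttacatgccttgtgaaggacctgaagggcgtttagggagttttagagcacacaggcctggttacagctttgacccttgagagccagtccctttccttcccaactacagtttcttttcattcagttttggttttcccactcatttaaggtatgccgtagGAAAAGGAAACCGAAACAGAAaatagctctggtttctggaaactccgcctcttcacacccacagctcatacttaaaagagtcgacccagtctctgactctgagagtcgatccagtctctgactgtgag

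In the RefSeq windows (GRCm38.p6), 7 of the 8 genes had an entry, with 10 windows in all, and Stau2 had none. The letters GAAANNGAA, counted on both strands with overlaps, stood in 1 of these 10 windows, the internal start of Adar, against 8.56% of all 32851 windows. The longer form GAAANNGAAA stood in none of the 10 windows and in 3.44% of all windows. Of the 7 windows of the interferon-stimulated list, 5 held the longer form. The shorter form was searched after the windows had been seen. The counts are per gene and do not separate the transcripts of the Adar starts.

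Adar was the one member that was lower past 2-fold with ADAR1i-124 in each fraction. It stood at 233 CPM with DMSO, 58.9 under ADAR1i-124 and 198 under 5-AZA-CdR in total RNA. In the J2 libraries it was at 176 CPM with DMSO, 83.3 under ADAR1i-124, 255 under 5-AZA-CdR and 243 with the combination. In the Z22 libraries it was at 149 CPM with DMSO, 125 under ADAR1i-124, 241 under 5-AZA-CdR and 285 with the combination, and IgG gave 133. The ADAR1i-124 library was the lowest of its fraction in total RNA, J2 and Z22 alike. Less the median gene, taken over genes that averaged 1 CPM or more, the log2 change against DMSO was -1.89 in total RNA, with a 95% counting interval (Wilson) of -1.99 to -1.80. It was -1.08 in J2 (-1.18 to -0.98) and -1.07 in Z22 (-1.17 to -0.97). These intervals cover counting error only and leave out variation between cultures, since each arm had 1 library. The reads carried no molecular identifiers, so copies made in amplification were not separated.

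The Z22 value for Adar rested on the scaling. The median gene was higher by 0.81 to 1.06 on the log2 scale in the treated Z22 libraries than in that of DMSO, and by library totals alone the change of Adar with ADAR1i-124 was -0.26, short of 2-fold. Between the Z22 libraries with close medians, Adar was 1.19 higher on the log2 scale with the combination than with ADAR1i-124 (1.10 to 1.28). With 5-AZA-CdR, the change of Adar against DMSO was -0.29 in total RNA and 0.47 in J2, and in Z22 it was -0.37, or 0.69 by library totals. With the combination it was 0.36 in J2 and 0.11 in Z22, or 0.93 in Z22 by library totals, so that Adar was not below DMSO with the combination in either precipitate. In J2, the combination was 1.44 above ADAR1i-124 alone (1.34 to 1.54) and at -0.11 from 5-AZA-CdR alone.

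**Figure D1:**
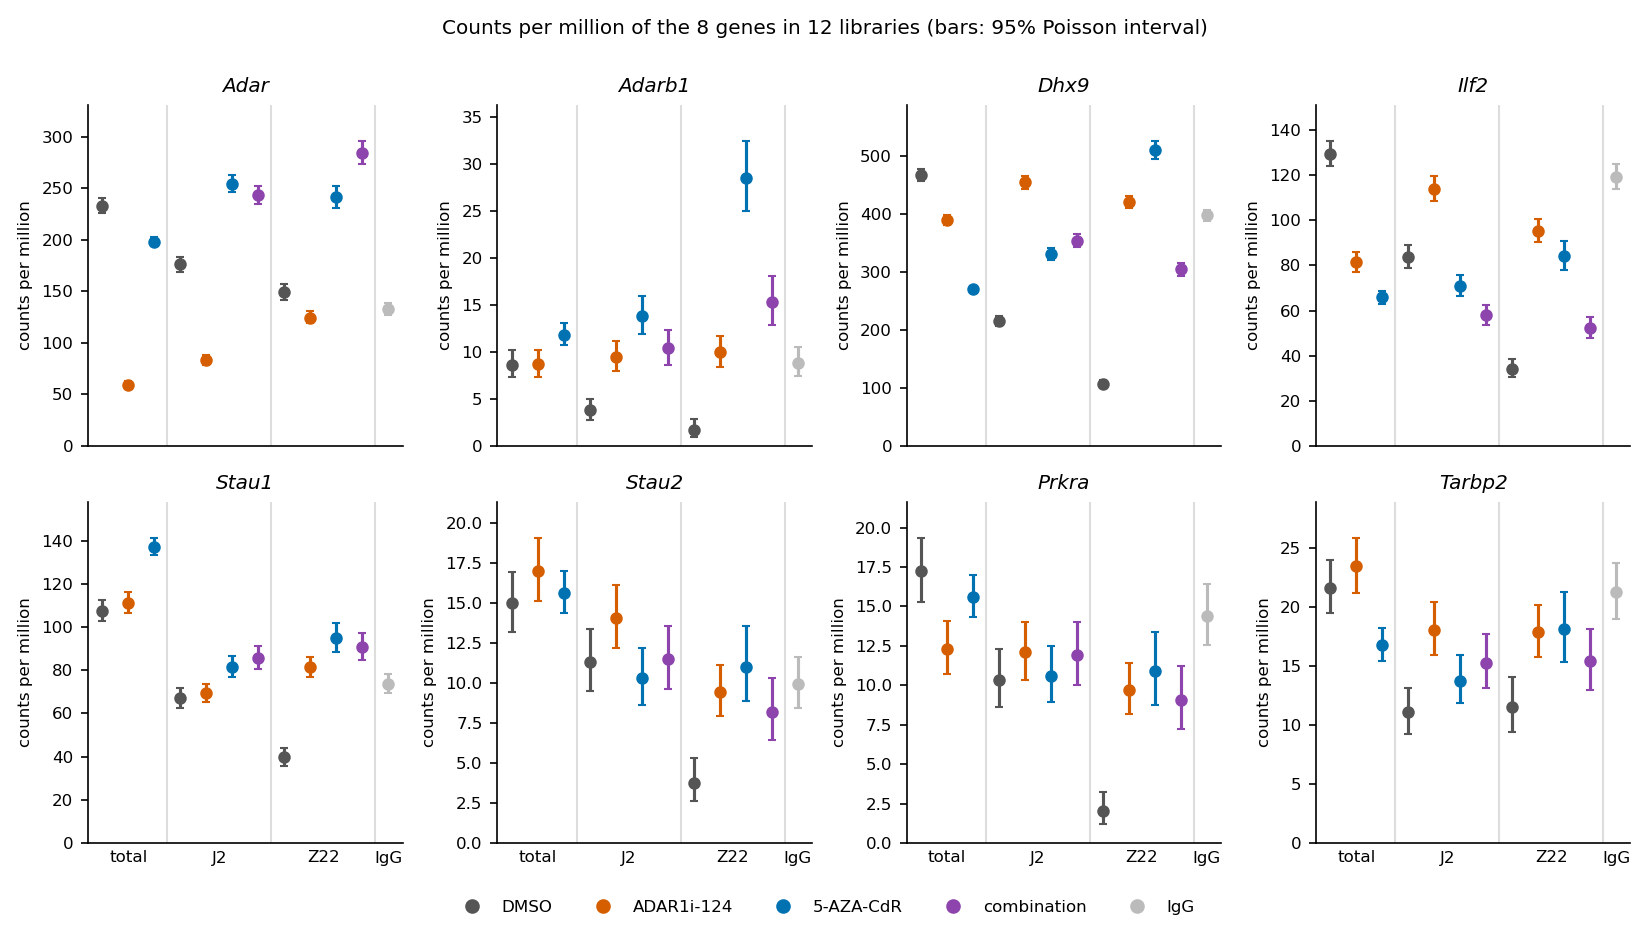
CPM (linear axes, each from 0) of the 8 genes in 12 libraries, grouped by RNA fraction and coloured by treatment, with 95% Poisson intervals of the counts. Adar was lowest with ADAR1i-124 in each fraction, and the other 7 genes were lowest of the Z22 libraries with DMSO.

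Adarb1, on chr10:77290726-77418270 (reverse strand), was the scarcest member with Stau2 per kilobase of exon, though not by CPM in every library. It was at 8.64 CPM with DMSO, 8.68 under ADAR1i-124 and 11.8 under 5-AZA-CdR in total RNA. The J2 libraries gave 3.78 CPM with DMSO, 9.45 under ADAR1i-124, 13.8 under 5-AZA-CdR and 10.4 with the combination. The Z22 libraries gave 1.72 CPM with DMSO, 9.96 under ADAR1i-124, 28.5 under 5-AZA-CdR and 15.3 with the combination, beside 8.87 with IgG. In both precipitates the DMSO library was the lowest and the 5-AZA-CdR library the highest. The centred log2 changes in J2 were 1.22 with ADAR1i-124 (0.84 to 1.80), 1.69 with 5-AZA-CdR (1.35 to 2.28) and 1.24 with the combination (0.86 to 1.84). In Z22 they were 1.43, 2.65 and 2.01 in the same order, on 15 counts in the DMSO library. In total RNA the changes were 0.10 under ADAR1i-124 and 0.37 under 5-AZA-CdR, so the ADAR enzymes did not change in parallel: under ADAR1i-124 in J2, Adar was lower and Adarb1 higher, each past 2-fold. Both genes in J2 share the 1 DMSO library as reference.

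Dhx9, the RNA helicase that unwinds dsRNA and RNA:DNA hybrids, lies on chr1:153455758-153487660 (reverse strand) and was the most abundant member per kilobase of exon in most libraries. It was at 467 CPM with DMSO, 390 under ADAR1i-124 and 270 under 5-AZA-CdR in total RNA. In J2 it was at 215 CPM with DMSO, 454 under ADAR1i-124, 331 under 5-AZA-CdR and 354 with the combination. In Z22 it was at 107 CPM with DMSO, 420 under ADAR1i-124, 510 under 5-AZA-CdR and 305 with the combination, and IgG gave 398. DMSO was the highest library of total RNA and the lowest of each precipitate. With ADAR1i-124, Dhx9 was at a centred log2 change of -0.17 in total RNA, 1.07 in J2 (1.01 to 1.14) and 1.16 in Z22 (1.07 to 1.27). With 5-AZA-CdR the values were -0.85 in total RNA, 0.56 in J2 and 1.19 in Z22, and with the combination 0.61 in J2 and 0.69 in Z22, the last of which was 1.51 by library totals.

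Ilf2, which carries a DZF dimerization domain, lies on chr3:90476126-90488379 (forward strand). It was at 130 CPM with DMSO, 81.5 under ADAR1i-124 and 65.8 under 5-AZA-CdR in total RNA. The J2 libraries gave 84.0 CPM with DMSO, 114 under ADAR1i-124, 71.1 under 5-AZA-CdR and 58.0 with the combination. The Z22 libraries gave 34.3 CPM with DMSO, 95.5 under ADAR1i-124, 84.1 under 5-AZA-CdR and 52.3 with the combination, and IgG gave 119. In each fraction Ilf2 was lower with 5-AZA-CdR than with ADAR1i-124, and lowest of the treated precipitates with the combination. The centred change with 5-AZA-CdR in total RNA was -1.03 (-1.12 to -0.95), just past the 2-fold line, and -0.97 by library totals, just short of it. Mki67 was lower in the same pair of libraries, at 86.6 against 895 CPM, as was Dhx9, and its part in these values was not tested. In J2, the combination was at -1.07 from ADAR1i-124 alone on the same scale (-1.21 to -0.95), or -0.97 by library totals. Ilf2 shares 354 exonic bases with Snapin on the other strand, and the strand setting of the counting is not given in the sources used here.

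Stau1, a Staufen protein that binds dsRNA stems in mRNA, lies on chr2:166947549-166996299 (reverse strand). It was at 107 CPM with DMSO, 111 under ADAR1i-124 and 137 under 5-AZA-CdR in total RNA. The J2 libraries gave 67.1 CPM with DMSO, 69.3 under ADAR1i-124, 81.7 under 5-AZA-CdR and 85.7 with the combination. The Z22 libraries gave 39.8 CPM with DMSO and 81.4 to 94.9 with the treatments, and IgG gave 73.7. Its centred log2 changes against DMSO lay between 0.05 and 0.36 in all 8 comparisons. By library totals, its 3 Z22 changes were 1.03 under ADAR1i-124, 1.24 under 5-AZA-CdR and 1.18 with the combination, each past 2-fold. Stau2, the Staufen protein best known from neurons, lies on chr1:16228674-16520112 (reverse strand). It was at 15.0 to 17.0 CPM in total RNA, 10.3 to 14.0 in J2, 3.78 to 11.02 in Z22 and 9.92 with IgG. Its centred changes lay between -0.19 and 0.40, and the Z22 changes by library totals were 1.21, 1.43 and 1.02 in the same order.

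Prkra encodes PACT, an activator of PKR and a partner of Dicer, and lies on chr2:76629898-76648015 (reverse strand). It was at 17.2 CPM with DMSO, 12.3 under ADAR1i-124 and 15.6 under 5-AZA-CdR in total RNA. It was at 10.3 to 12.1 CPM in the J2 libraries and 14.4 with IgG. In Z22 it was at 2.06 CPM with DMSO, on 18 counts, and at 9.68 under ADAR1i-124, 10.9 under 5-AZA-CdR and 9.07 with the combination. Prkra was past 2-fold in Z22 with each treatment, at centred values of 1.18, 1.09 and 1.08, but all 3 rest on the DMSO library that stood apart. With a pseudocount of 2 CPM, Prkra no longer passed with ADAR1i-124 or the combination. The J2 changes were 0.21, -0.03 and 0.09. Tarbp2, which encodes TRBP, an inhibitor of PKR and a partner of Dicer, lies on chr15:102518192-102523676 (forward strand). It was at 21.6 CPM with DMSO, 23.4 under ADAR1i-124 and 16.8 under 5-AZA-CdR in total RNA, and 21.3 with IgG. It was at 11.1 to 18.1 CPM in J2 and 11.6 to 18.1 in Z22. Its centred changes lay between -0.44 and 0.68, with no value past 2-fold, and its 3 Z22 values, -0.21, -0.44 and -0.42, turned to 0.61, 0.63 and 0.40 by library totals.

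**Figure D2:**
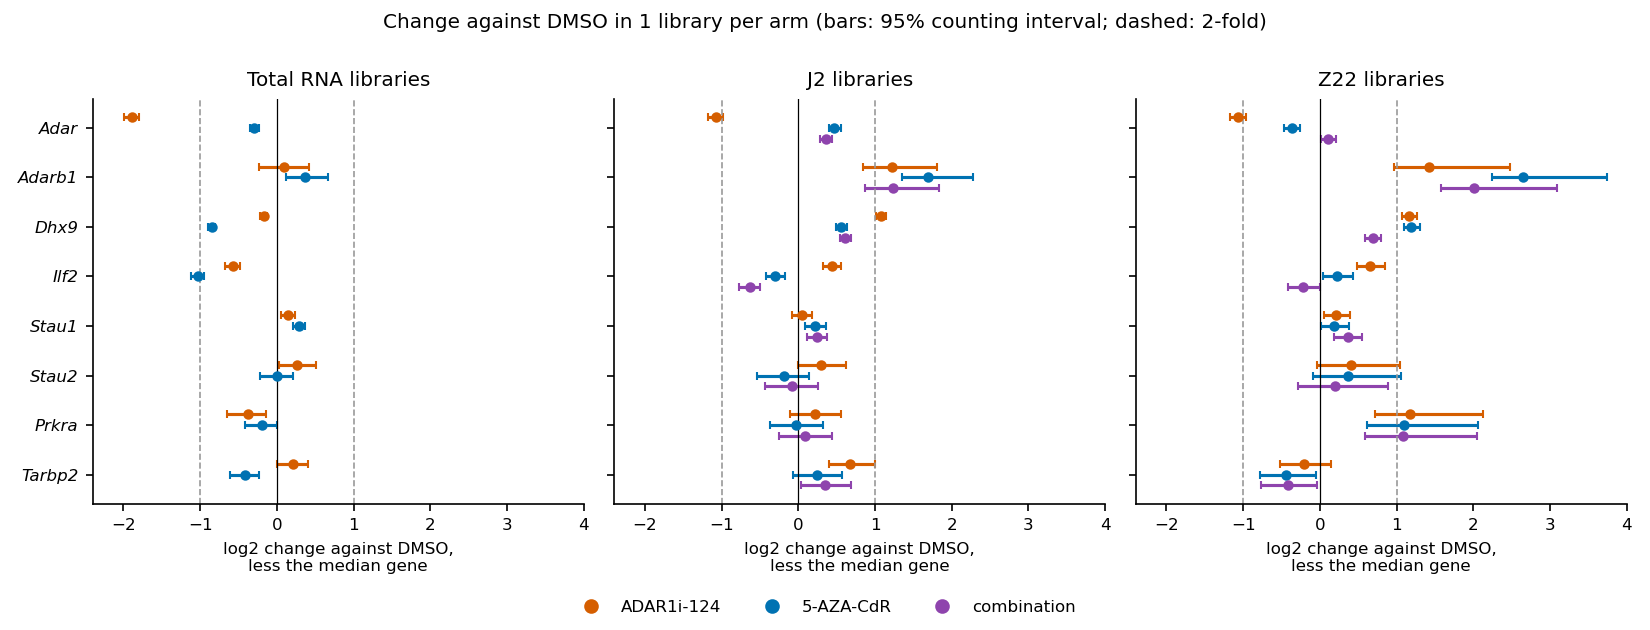
Log2 change of each gene against the DMSO library of the same fraction, less the median gene, with 95% counting intervals and dashed lines at 2-fold. Adar is left of 0 with ADAR1i-124 in all 3 fractions, and Adarb1 is right of the 2-fold line in the J2 and Z22 panels and inside it in total RNA.

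The order of the members by CPM per kilobase of merged exons held over the 12 libraries in its broad lines. Dhx9 held ranks 1 to 2, with 11.1 to 53.1 CPM per kilobase. Adar ranged from 7.25 to 35.1 and held ranks 1 to 4, Stau1 from 6.56 to 22.6 with ranks 2 to 4, and Ilf2 from 3.99 to 15.1 with ranks 2 to 5, so the last 3 changed places between libraries. Prkra, at 1.02 to 8.49, and Tarbp2, at 2.44 to 5.15, held ranks 4 to 6. Stau2, at 0.56 to 2.52, and Adarb1, at 0.15 to 2.53, were always the last 2. Over all libraries the highest level was 2.12 times the lowest for Tarbp2, 3.45 times for Stau1, 3.78 times for Ilf2, 4.83 times for Adar and 16.6 times for Adarb1.

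Counted over the members, 1 of 8 passed 2-fold with each agent in total RNA, 1 to 3 did so in the J2 comparisons and 2 to 4 in those of Z22. With ADAR1i-124 in total RNA, 0 of 8 members were higher and 1 (Adar) lower, against 8.93% and 7.26% of all genes, with a member median of -0.04. With 5-AZA-CdR in total RNA, 0 were higher and 1 (Ilf2) lower, against 15.7% and 9.91%, and the median was -0.25. In J2 with ADAR1i-124, 2 (Adarb1 and Dhx9) were higher and 1 (Adar) lower, against 7.37% and 10.8%, with a median of 0.37. In J2 with 5-AZA-CdR, only Adarb1 was past the line, higher, against 7.81% of genes higher and 6.6% lower, and the same held with the combination, against 6.97% and 4.92%. The medians were 0.23 and 0.29.

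In Z22, the shares of all genes past the line were larger than in the other fractions. With ADAR1i-124, 3 members (Adarb1, Dhx9 and Prkra) were higher and 1 (Adar) lower, against 17.6% and 17.5% of genes, with a median of 0.53. With 5-AZA-CdR, 3 (Adarb1, Dhx9 and Prkra) were higher and 0 lower, against 18.4% and 19.3%. With the combination, 2 (Adarb1 and Prkra) were higher and 0 lower, against 18.1% and 17.6%. The medians were 0.30 and 0.28. These Z22 counts rested on the centring. By library totals, 6 members were higher and 0 lower with ADAR1i-124, against 42.9% and 5.13% of genes, so that Adar no longer passed and Ilf2, Stau1 and Stau2 did. With 5-AZA-CdR the same 6 were higher and 0 lower, against 52.1% and 4.1%. With the combination 5 were higher, without Ilf2, and 0 lower, against 43.4% and 5.03%. The member medians by library totals were 1.34, 1.36 and 1.10 in the 3 comparisons. The comparisons that leave out the DMSO libraries were chosen after seeing the data. Between the combination and 5-AZA-CdR alone, 0 of 8 members passed 2-fold in J2, where 1.26% of genes were higher and 0.747% lower, or in Z22, where 3.54% were higher and 4.7% lower. Between the combination and ADAR1i-124 alone, Adar was higher and Ilf2 lower in J2, against 12.5% and 7.12% of genes. In Z22, Adar alone passed the line, higher, against 9.9% higher and 6.31% lower.

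In the libraries labelled ADAR1i-124, the interferon-stimulated genes were low together with Adar. All 10 genes of an interferon-stimulated list were past 2-fold lower with ADAR1i-124 in total RNA, with a list median of -4.65 on the centred log2 scale. Isg15, a ubiquitin-like modifier, was at 287 CPM with DMSO and 3.58 with ADAR1i-124, Ifit3 at 227 and 2.38, and Irf7 at 83.6 and 0.851. In J2 and in Z22, 9 of the 10 were lower past 2-fold with ADAR1i-124, with list medians of -2.95 and -1.69. By library totals, 4 of the 10 passed in Z22, with a median of -0.88, while J2 stayed at 9. With the combination, 3 of 10 in J2 and 1 of 10 in Z22 were higher than with DMSO, and 0 and 1 were lower. By library totals, 6 of 10 were higher and 0 lower in Z22 with the combination, with a median of 1.03 in place of 0.21. With 5-AZA-CdR, 2 of 10 were higher and 1 lower than with DMSO in total RNA, with a median of -0.30. In J2, 4 were higher and 0 lower (median 0.81), and in Z22, 0 and 3 (-0.83), or 2 and 1 by library totals (0.23). Between the combination and 5-AZA-CdR alone, 0 of 10 passed 2-fold in J2 (-0.12). In Z22, 5 were higher with the combination (1.05), or 3 by library totals (0.87). Against ADAR1i-124 alone, all 10 were higher with the combination in both J2 and Z22, with medians of 3.51 and 1.85. Each change of Adar was smaller than the list median in these ADAR1i-124 comparisons.

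The genes whose log2 CPM correlated best with that of Adar over the 12 libraries, out of 8889 genes averaging 10 CPM or more, were Trim25 (Pearson's r = 0.991), Ddx60 (0.959), Ifih1 (0.954), Gbp2 (0.949) and Mx1 (0.947). Trim25, a ubiquitin ligase of the RIG-I pathway, was at 208 CPM with DMSO and 51.7 with ADAR1i-124 in total RNA, close to the values of Adar. Ifih1, the gene of the dsRNA sensor MDA5, was at 222 CPM with DMSO and 21.2 with ADAR1i-124. Without the Z22 libraries, Trim25 was the only one of these 5 still among the first 5, though Ddx60, Ifih1, Gbp2 and Mx1 kept correlations of 0.958 to 0.978. The points share treatments, fractions and a cell line, so the correlations describe these libraries only. The other members correlated with Adar at 0.30 (Adarb1), 0.12 (Stau1), 0.03 (Prkra), -0.08 (Dhx9), -0.21 (Stau2), -0.28 (Ilf2) and -0.40 (Tarbp2).

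**Figure D3:**
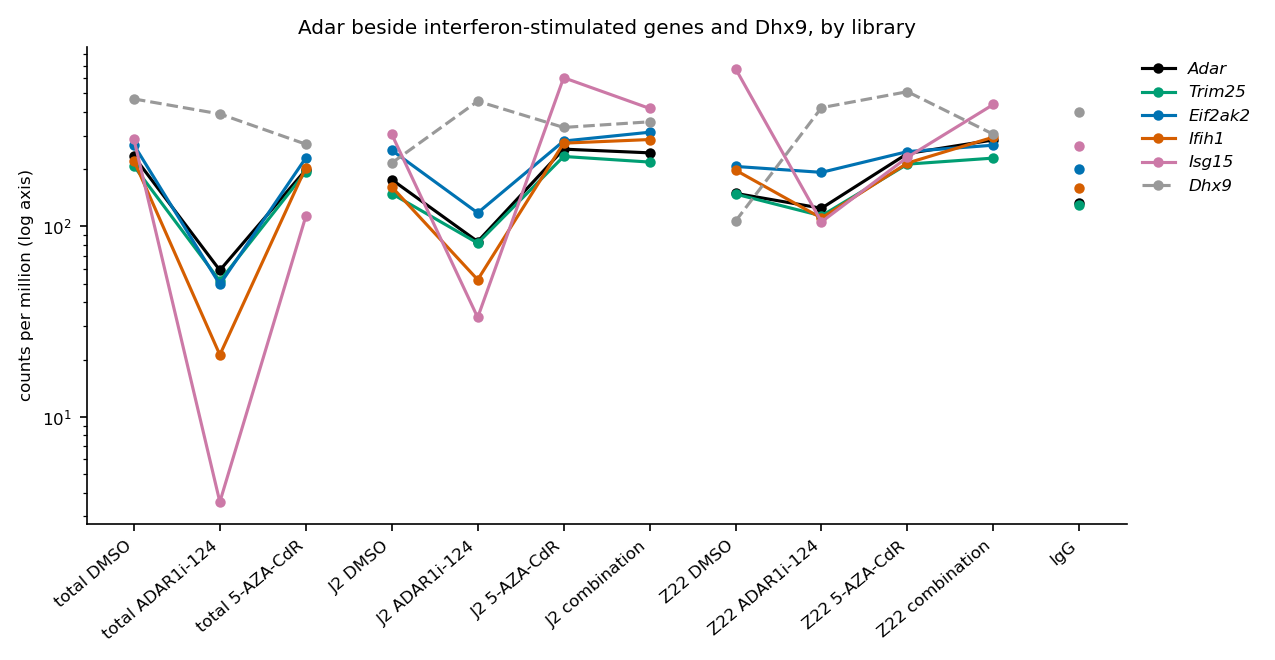
CPM on a log axis of Adar, of 4 interferon-stimulated genes and of Dhx9 in the 12 libraries, with lines joining libraries of one fraction only to guide the eye. Adar and Trim25 lie close together throughout, Isg15 is at 3.58 CPM in total RNA with ADAR1i-124, and Dhx9 (dashed) does not dip there.

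Among 13 other genes with dsRNA-binding domains, 10 were measured in total RNA with ADAR1i-124, and only Eif2ak2 passed 2-fold, lower. Eif2ak2 encodes the dsRNA-activated kinase PKR and was at 268 CPM with DMSO, 49.6 under ADAR1i-124 and 229 under 5-AZA-CdR. Its centred change with ADAR1i-124 was -2.33 in total RNA, -1.09 in J2 and, short of 2-fold, -0.91 in Z22, or -0.10 in Z22 by library totals. It correlated with Adar at 0.92 over the 12 libraries. With 5-AZA-CdR in total RNA, only Strbp, a testis-enriched RNA-binding protein, passed 2-fold in this list, at 57.5 CPM with DMSO and 21.3 with 5-AZA-CdR. Past 2-fold lower were 7.26% of all genes with ADAR1i-124 and 9.91% with 5-AZA-CdR. The list medians were 0.11 and -0.26, on the scale where the median gene is 0.

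Lists of the pathways in which the members work were described in the same way in total RNA. Of all genes, 8.93% were higher and 7.26% lower past 2-fold with ADAR1i-124, and 15.7% and 9.91% with 5-AZA-CdR. Of 4 measured genes for tRNA adenosine deamination and inosine handling, 0 passed 2-fold with ADAR1i-124 and 1 was lower with 5-AZA-CdR, or 0 by library totals, with list medians of 0.05 and -0.51. Of 11 genes of the small RNA machinery, 1 was higher with each agent, with medians of 0.24 and -0.08, and Tnrc6c, a GW182 protein of silencing complexes, was at 49.9 CPM with DMSO and 108 with ADAR1i-124. Of 8 genes of nonsense-mediated and Staufen-mediated decay, 1 was higher with each agent, with medians of 0.14 and -0.16. Upf1, the helicase both pathways use, was at 73.5 CPM with DMSO and 143 with ADAR1i-124, past 2-fold on the centred scale but not by library totals, and Smg6, an endonuclease, was at 67.2 with DMSO and 142 with 5-AZA-CdR. Of 7 other RNA helicases, 0 passed 2-fold with either agent, with medians of 0.01 and -0.43.

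Precipitated RNA was set against the IgG library to see whether member transcripts were richer in the J2 or Z22 fraction. No member was 2-fold above IgG in all 4 libraries of an antibody. Adar was the highest member on average, at a centred log2 ratio to IgG of 0.35 ± 0.70 in J2 and 0.68 ± 0.51 in Z22 (SD over 4 treatments, with 1 IgG library in common). Its J2 values were 0.41 with DMSO, -0.66 under ADAR1i-124, 0.89 under 5-AZA-CdR and 0.75 with the combination, and its Z22 values were 1.0, -0.04, 0.68 and 1.09. In the Z22 library of DMSO, the median gene was at -0.83 against IgG. By library totals, Adar was at 0.17 there and the other members at -2.54 (Prkra) to -0.85 (Tarbp2). Adar was lowest against IgG with ADAR1i-124 for both antibodies. Ilf2 was below IgG in all 8 libraries, at -1.19 to -0.06, and Prkra in all 8, at -1.71 to -0.24. Tarbp2 was below in all 8 as well, at -0.91 to -0.02, while Stau1 stayed between -0.13 and 0.29 on the centred scale and was at -0.88 by library totals in the Z22 library of DMSO. Dhx9 ranged from -1.07 to 0.20 and Adarb1 from -1.25 to 1.45, each lowest with DMSO. The median over the 8 members of their mean ratio was -0.21 in J2 and -0.23 in Z22.

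**Figure D4:**
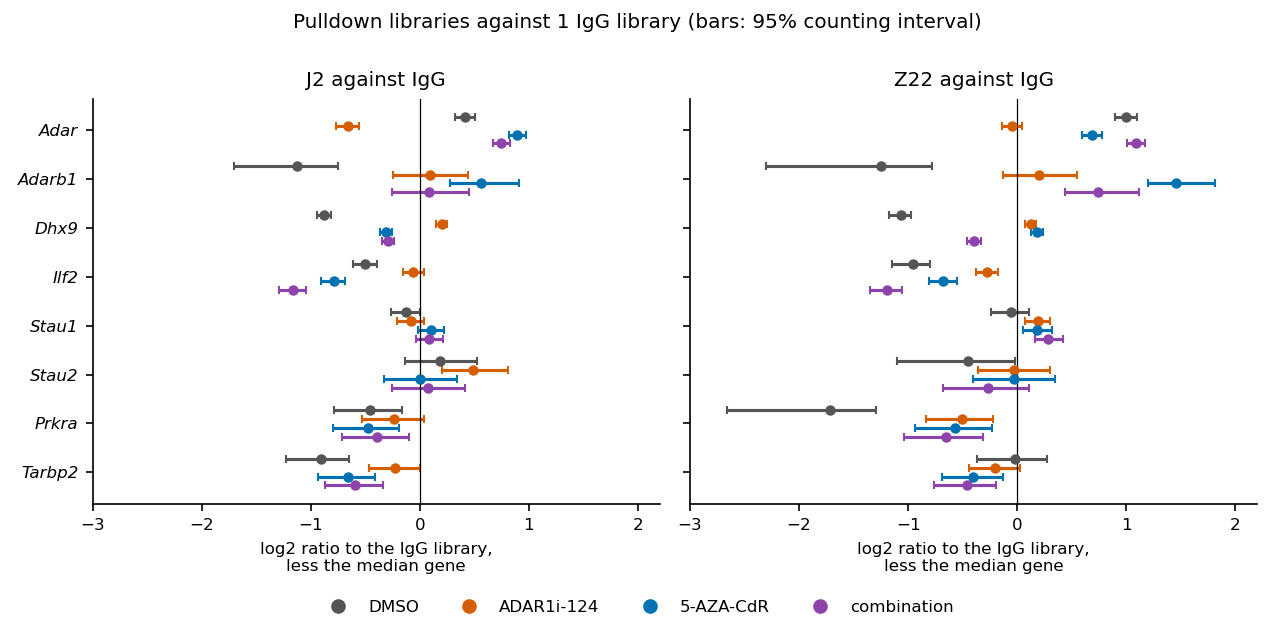
Log2 ratio of each gene in 4 J2 and 4 Z22 libraries to the 1 IgG library, less the median gene, with 95% counting intervals, coloured by treatment. Ilf2, Prkra and Tarbp2 lie left of 0 in all 8 libraries, and Adar lies right of 0 except with ADAR1i-124.

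Differences between fractions were tested with the treatment as a block, with edgeR's quasi-likelihood test and Benjamini-Hochberg adjustment over all genes. Between Z22 and J2 over 4 treatments, 0 of 8 members were called, and 0 of 14366 genes (0%), although 3104 genes had an unadjusted p under 0.05 and DESeq2 called 641 genes higher and 263 lower, none of them a member. Adar differed by 0.32 on the log2 scale (95% interval -0.16 to 0.80, edgeR adjusted p = 0.392), being higher in Z22 in 3 of 4 treatments on the centred scale, and by 0.12 with library totals. Prkra differed by -0.50 (-1.13 to 0.13, edgeR adjusted p = 0.314) and Stau2 by -0.43 (-0.95 to 0.08, edgeR adjusted p = 0.292), both lower in Z22 in 4 of 4 treatments on the centred scale. Without DMSO, whose Z22 library stood apart, Prkra differed by -0.24 and Stau2 by -0.34. Dhx9 differed by 0.02 (-0.45 to 0.49), or by -0.18 with library totals.

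Between J2 and total RNA over 3 treatments, 0 of 8 members were called, against 5 of 14988 genes (0.0334%). Adar differed by 0.52 (-0.09 to 1.13, edgeR adjusted p = 0.513), or by 0.15 with library totals, and was higher in J2 in 2 of 3 treatments. Stau1 differed by -0.34 (-0.84 to 0.16, edgeR adjusted p = 0.603), and its centred values were -0.31 to -0.38, lower in J2 in 3 of 3 treatments. Between Z22 and total RNA, 0 of 8 were called, against 11 of 14931 genes (0.0737%). Adar differed by 0.82 (-0.04 to 1.67, edgeR adjusted p = 0.448), higher in Z22 in 3 of 3 treatments at centred values of 0.48 to 1.38. With library totals it differed by 0.24, and the DMSO pair stood at -0.64. Prkra differed by -0.69 (-1.85 to 0.48), with centred values of -1.61 with DMSO, -0.03 under ADAR1i-124 and -0.30 under 5-AZA-CdR. It differed by -0.19 without DMSO and by -1.03 without ADAR1i-124. Stau2 differed by -0.53 (-1.47 to 0.41), lower in Z22 in 3 of 3 treatments, and by -1.10 with library totals. Fractions of one treatment are not known to come from the same culture, and the p-values measure only the spread between these libraries.

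**Figure D5:**
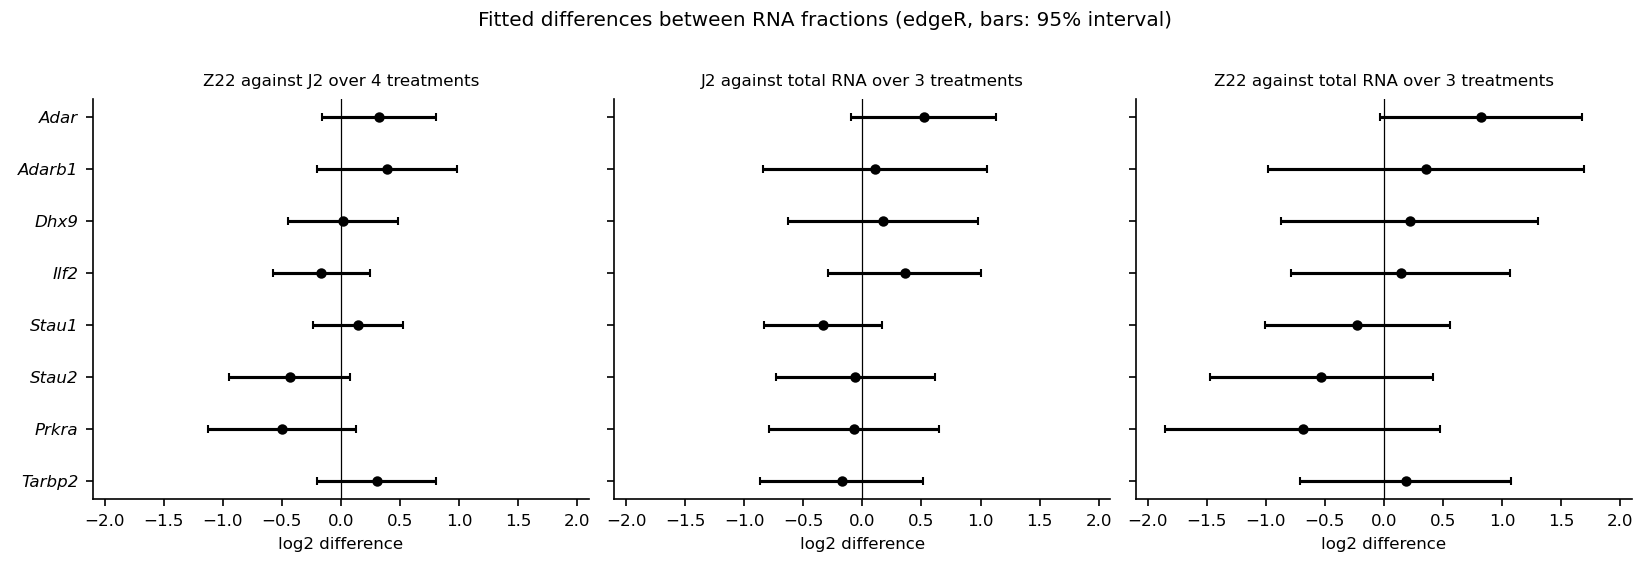
Fitted log2 difference of each gene between RNA fractions with 95% intervals, from edgeR fits with the treatment as a block over 4 or 3 treatments. Each interval includes 0, and that of Adar in Z22 against total RNA, -0.04 to 1.67, only just.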

How the data were processed

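The authors treated YUMM1.7 cells, extracted RNA with TRIzol and prepared libraries with ribosomal RNA depletion. According to the methods, paired reads were mapped with STAR in snakePipes to GRCm38 (mm10), and the authors deposited raw counts per gene without normalization. The counting tool and its strand setting are not given in the sources used here.

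Identifiers were matched without version to GENCODE M21 (54495 of 54532 genes). The members and gene lists were chosen with earlier results of these data known. All 8 members, at most 3 genes past 2-fold per list that averaged 10 CPM or more, the 5 genes most correlated with Adar and Gm42418 were named. Ddx3y and Mki67 were named after their values were seen. A planned list of DZF domain genes is not reported here. Ratios of 1 library to another used CPM of the table total, a pseudocount of 0.5 CPM, which understates changes of low genes, and centring on the median of genes averaging 1 CPM or more; past 2-fold means a centred log2 of at least 1 or at most -1. Counting intervals are 95% Wilson intervals of the read share without the pseudocount. Fractions were compared with edgeR 4.0.16 in R 4.3.3 (TMM, filterByExpr, treatment as a block), with DESeq2 1.42.0 as an alternative. Same-treatment libraries deviated together between Z22 and J2 (correlations of 0.45 to 0.81 over 8889 genes) but, for DMSO, not between total RNA and J2 (-0.10) or Z22 (-0.11). Both calculations were checked on simulated counts. Python 3.11.15, numpy 2.4.6, pandas 2.3.3, scipy 1.17.1, statsmodels 0.14.6 and matplotlib 3.10.9 were used.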

Additional observations from a re-analysis of the deposited data

Results flagged for a closer look

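Members whose changes against DMSO lay on opposite sides of the median gene in different fractions, each beyond counting error, are given here as centred log2 values. These differences between fractions were not tested, since each value compares 1 library with 1 library.

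Adar with 5-AZA-CdR was at -0.29 in total RNA, 0.47 in J2 and -0.37 in Z22. Dhx9 with ADAR1i-124 was at -0.17 in total RNA, 1.07 in J2 and 1.16 in Z22. Dhx9 with 5-AZA-CdR was at -0.85 in total RNA, 0.56 in J2 and 1.19 in Z22. Ilf2 with ADAR1i-124 was at -0.58 in total RNA, 0.44 in J2 and 0.65 in Z22. Ilf2 with 5-AZA-CdR was at -1.03 in total RNA, -0.30 in J2 and 0.22 in Z22. Prkra with ADAR1i-124 was at -0.38 in total RNA and 1.18 in Z22. Tarbp2 with the combination was at 0.34 in J2 and -0.42 in Z22. By library totals, the Z22 values of Adar with 5-AZA-CdR and of Tarbp2 with the combination turned positive, as given above. On that scale, the J2 and Z22 values in these pairs had the same sign. For Dhx9, Ilf2 and Prkra, DMSO was the highest library of total RNA, and for Dhx9 it was the lowest of each precipitate.

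The total RNA library of the combination, which entered no comparison, held 1245894 counts. Tarbp2 was at 85.9 CPM there, on 107 counts and above its 21.6 CPM in total RNA with DMSO. Ilf2 had 61 counts, Stau1 70 and Adar 2, and Adarb1, Dhx9, Stau2 and Prkra had 0, which allows up to 2.41 CPM. Chrnb2, which overlaps the exons of Adar by 1365 bases on the other strand, had 2203 counts in this library and 1 to 82 in each of the other 12, so the values of this library are not levels of the members.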

How the results depend on the processing

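The members past 2-fold were counted again under other scalings, pseudocounts, filters, fold lines and centrings. Of the 576 single values of members, 500 moved by less than the distance from the middle of their counting interval to its end. The other 76 moved by more, and no value past 2-fold changed sign. At a 4-fold line the count fell to 0 in total RNA with either agent and in J2 with ADAR1i-124, 5-AZA-CdR or the combination, to 0 in Z22 with ADAR1i-124 and to 1 in Z22 with 5-AZA-CdR or the combination. At 1.5-fold it was 2 in total RNA with 5-AZA-CdR and 3 in J2 with the combination. It also rose at 1.5-fold in J2 with ADAR1i-124 and in Z22 with ADAR1i-124 or the combination. The shares of all genes past the 4-fold and 1.5-fold lines, or at a pseudocount of 2 CPM, are not given here. These counts therefore do not set the members apart from all genes. The single call in total RNA with 5-AZA-CdR, Ilf2, was lost (0) by library totals, by totals without the 20 genes of the highest share, with a filter of 5 CPM and with protein-coding genes for centring. In Z22, library totals without centring gave 6 members under ADAR1i-124, 6 under 5-AZA-CdR and 5 with the combination. For the interferon-stimulated list this scaling was added after seeing the data. A pseudocount of 2 CPM gave 2 with ADAR1i-124 and 1 with the combination. The cause was not tested.

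No member was called between fractions under any setting, including fits without the treatment as a replicate block, where the count was 0 in all 3 contrasts. Some single differences changed sign, none of them called. By library totals, which put the median gene at -0.21, -0.37 and -0.57 in the Z22 to J2, J2 to total and Z22 to total contrasts, these were, between Z22 and J2, Dhx9 at -0.18 and Stau1 at -0.0515, between J2 and total RNA, Adarb1 at -0.26, Dhx9 at -0.19 and Ilf2 at -0.00885, and between Z22 and total RNA, Adarb1 at -0.18, Dhx9 at -0.33, Ilf2 at -0.41 and Tarbp2 at -0.39. Without a filter, Dhx9 between Z22 and J2 was at -0.0044. With 1 treatment left out, Dhx9 between Z22 and J2 ranged from -0.129 to 0.0796, and between J2 and total RNA, Prkra ranged from -0.271 to 0.0538, Tarbp2 from -0.307 to 0.0141, Adarb1 from -0.164 to 0.522, Dhx9 from -0.0857 to 0.604 and Stau2 from -0.128 to 0.0223. Between Z22 and total RNA, Ilf2 ranged from -0.0726 to 0.529, Adarb1 from -0.25 to 0.98 and Dhx9 from -0.24 to 0.75. Counts over all genes moved more. Between Z22 and J2, none were called in the fit with the block, 851 higher and 623 lower without a filter, and 610 higher and 240 lower without DMSO. Between J2 and total RNA, 5 higher became 347 higher and 208 lower without a filter, 215 and 147 without DMSO, 304 and 86 with DESeq2, 14 higher with DESeq2 size factors and 3 with library totals. Leaving out ADAR1i-124 gave 11 and leaving out 5-AZA-CdR gave 2. Between Z22 and total RNA, 11 higher became 198 and 78 lower without a filter, 251 and 59 with DESeq2, 7 with library totals, 0 without the block, 4 without DMSO, 33 and 11 without ADAR1i-124, and 61 and 2 without 5-AZA-CdR. The member median against IgG was -0.05 in J2 and -0.07 in Z22 without the DMSO libraries, an alternative chosen after seeing the data.

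With 1 library per condition, no treatment effect was separated from the variation between cultures, and the low members rest on 15 to 33 counts in the Z22 library of DMSO.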
